A study of Zea mays with 36 samples.

Results

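The embryo of a high-oil maize line was compared at 20 days after pollination with the same line at 15 days. The members are the features of the deposited expression table that reached at least 1 RPKM in at least 3 of the 6 libraries concerned, which selected 22499 of the 63340 features. RPKM values are read counts scaled to the length of the feature and to the total of the library, so that levels can be compared between features. The comparison uses 6 of the 36 libraries of the series, 3 from high-oil embryos at 20 days and 3 from high-oil embryos at 15 days. A low-oil line, also with 3 libraries at 20 days and 3 at 15 days, serves for comparison. The labels describe the lines only by high oil content and low oil content, each oil level is represented by 1 genotype, and no allele, transgene or treatment is given for either. In all groups, seeds had stood in water overnight before the embryos were dissected out. Polyadenylated RNA was then sequenced as paired ends. The labels do not say whether replicates came from separate plants or ears, so every p-value below reflects only how far these samples differ, and part of that may be technical.

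The maize embryo is a large scutellum around a small axis, and most of the oil of the kernel lies in the scutellum, stored as triacylglycerol in oil bodies. Mid-development is known as the time when embryo cells leave division and patterning behind and turn to the synthesis of oil, globulins and, later, proteins tied to desiccation. MicroRNAs are cut from longer, polyadenylated precursor transcripts, and those precursors are what a library of polyadenylated RNA can show. A precursor's level is not that of its mature microRNA.

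Apart from the microRNA precursors, the table names features by ID only. It could not be asked whether genes of oil synthesis, oil bodies or storage proteins rose, and the tissue could not be checked against markers of embryo or endosperm. The 6 libraries held between 41247299 and 51906446 reads assigned to features. Replicate 1 stood somewhat apart at both ages. High-oil 20-day replicate 1 correlated with the other 20-day libraries at 0.952, against 0.967 and 0.967 for replicates 2 and 3, and with the 25-day libraries at 0.943, against 0.913 and 0.915. High-oil 15-day replicate 1 correlated with the 20-day libraries at 0.924, against 0.911 and 0.899 for replicates 2 and 3. On a scale set by the low-oil changes, the mean log2 level of the 575 features that rose minus that of the 624 that fell in the low-oil line over the same 5 days, the 20-day libraries had 1.56, 0.997 and 1.02 and the 15-day libraries −1.04, −1.78 and −2.06. Replicate 1 was the highest of its group at both ages on that scale, and the groups did not overlap.

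At 20 days the high-oil embryo differed from its 15-day state in 1878 features (8.35%), of which 730 rose, 3.24% of those tested, and 1148 fell, 5.1% (limma on log2(RPKM + 1), called at a Benjamini-Hochberg adjusted p below 0.05 and a change of at least 1 log2 unit). The features that rose had a median of 13.1 RPKM at 20 days, against 2.90 RPKM at 15 days. Those that fell had a median of 5.47 RPKM at 20 days, against 15.4 RPKM at 15 days. The rises were the steeper changes: the median rise was 1.56 log2 units and the median fall −1.30. At least 2 log2 units separated the ages in 209 of the rises and 71 of the falls, and at least 3 units in 76 of the rises and 6 of the falls. The 3 libraries of 20 days lay wholly above those of 15 days in 697 of the 730 rises and wholly below in 1126 of the 1148 falls. Over all tested features the ages were separate in this way in 44.8%, 11.6% upward and 33.1% downward, and since the calls rest on the same values these counts describe them only. In whole tissue, fewer cells of a type and less RNA per cell cannot be told apart.

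Which direction held more features depended on the scaling. With the values as deposited, scaled to the total reads of each library, the median change of all tested features was −0.17 on the log2 scale. With median-of-ratios scaling, which sets the typical feature level between libraries, that median was −0.02, and 848 features rose (3.77%) and 724 fell (3.22%). Rises were shared by both scalings in 709 features and falls in 724. Without replicate 1 of both ages, with the values as deposited, 726 rose and 1106 fell.

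**Figure D1:**
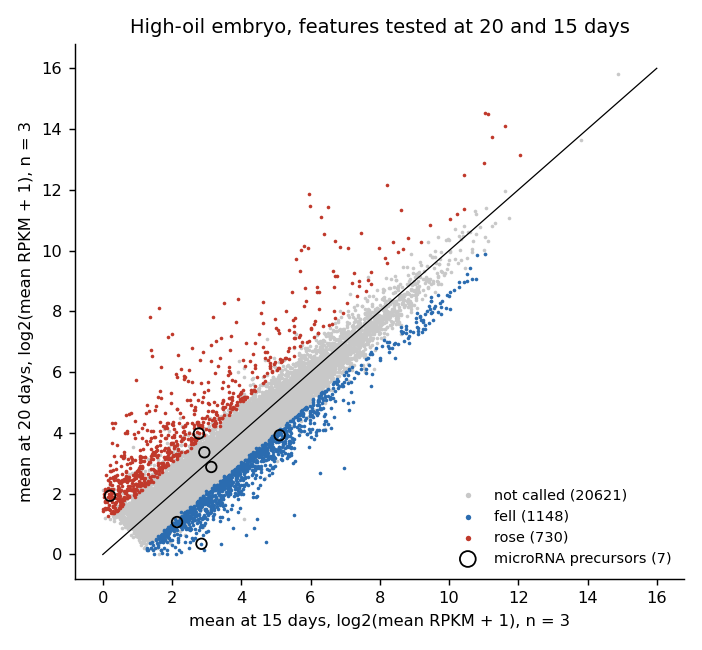
Mean level of each tested feature at 20 days (vertical) against 15 days (horizontal), both as log2(mean RPKM + 1) over 3 libraries. Features that rose (730, red) reach further from the line of equality than those that fell (1148, blue), and most of the highest levels at 20 days are red. Black circles mark the 7 tested microRNA precursors.

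Among the most abundant transcripts, rises outnumbered falls. Of the 59 features that averaged 1000 RPKM or more over the 6 libraries, 17 rose and 6 fell, 28.8% and 10.2%. In the next band, 100 to 1000 RPKM, 72 of 1099 rose and 91 fell, 6.55% and 8.28%. Between 10 and 100 RPKM 235 of 9390 rose and 496 fell, 2.50% and 5.28%. Between 1 and 10 RPKM 389 of 11601 rose and 544 fell, 3.35% and 4.69%. Below 1 RPKM 17 of 350 rose and 11 fell. Rises were thus more frequent than falls at the top of the range and less frequent in the 3 bands below it. With median-of-ratios scaling the split was 18 to 4 at the top, 84 to 74 in the band below, 314 to 314 between 10 and 100 RPKM and 417 to 329 between 1 and 10 RPKM. Taking instead the 88 features that reached 1000 RPKM at either age, which favours neither, 31 rose and 14 fell. The split was 33 to 12 with median-of-ratios scaling.

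The number of abundant features hardly differed, with 63 features reaching 1000 RPKM at 20 days, against 62 at 15 days. At the limit of 100 RPKM there were 1078 features at 20 days, against 1197 at 15 days. What differed was how many reads they took. In each library the 10 top-ranking features took 17.4%, 13.2% and 13.6% of the reads at 20 days, against 6.16%, 5.51% and 4.74% at 15 days. Every 20-day library lay above every 15-day library, and replicate 1 was the highest at both ages. The difference was 9.24 percentage points (exact permutation test, two-sided, p = 0.1, the smallest that 3 libraries against 3 allow). Of the 10 features with the highest mean at 20 days, 5 were also among the 10 highest at 15 days, and 8 rose. The lowest of these 10 had a mean of 4568 RPKM at 20 days, and the tenth feature at 15 days had 2227 RPKM.

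The 730 features that rose held 21.7%, 15.3% and 15.6% of the reads of the 20-day libraries, against 5.27%, 2.70% and 2.26% in the 15-day libraries. The 1148 features that fell held 2.58%, 3.03% and 3.06% at 20 days, against 7.11%, 8.28% and 8.29% at 15 days. The risers thus gained far more of the library than the fallers gave up, although they were fewer. The 20621 tested features that were not called made up the difference, with 79.1% ± 3.46 of the reads at 20 days and 88.2% ± 1.04 at 15 days (SD, n = 3 each). These shares follow from the calls and carry no test.

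**Figure D2:**
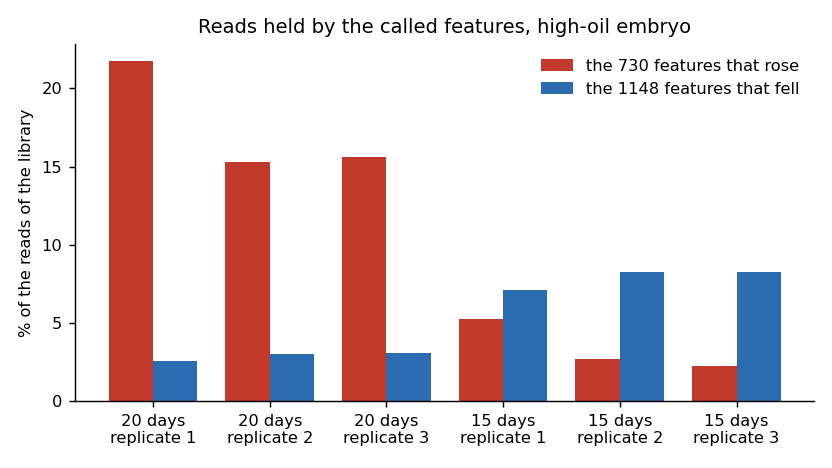
Percentage of the reads of each high-oil library held by the features that rose (red) and fell (blue), one pair of bars per library, 20 days left and 15 days right. Risers hold 15.3% to 21.7% at 20 days and 2.26% to 5.27% at 15 days, with replicate 1 the highest at both ages.

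The kinds of feature moved unevenly. Of 20622 annotated gene IDs tested, 604 rose (2.93%) and 1102 fell (5.34%), so that 35.4% of the called ones rose. Of 1707 tested features listed under a running number, without an annotation ID, 118 rose (6.91%) and 43 fell (2.52%), so that 73.3% of the called ones rose. With median-of-ratios scaling those shares were 50.8% and 81.5%. The running-number features were shorter and lower than the annotated ones, with a median length of 772 against 1643 bases and a median level at 20 days of 2.67 against 9.15 RPKM. Only 1707 of the 17005 in the table passed the limit of 1 RPKM, against 20622 of the 44146 annotated IDs. Of the 1861 noncoding RNA features with an ENSRNA identifier 163 were tested, of which 6 rose and 2 fell. Under median-of-ratios scaling these were 5 and 1. Whether reads were assigned by strand is not given in the sources used here, so reads of overlapping features cannot be told apart.

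Called annotated genes were also shorter than the rest. The median length was 1105 bases among the 604 that rose and 1426.5 bases among the 1102 that fell, against 1643 bases over all annotated IDs tested. The middle 50% of the lengths ran from 732 to 1522.25 bases among those that rose and from 1083 to 2405 bases over all.

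The 2 largest rises on the log2(RPKM + 1) scale were those of Zm00001d003282 and Zm00001d017021. Zm00001d003282, a transcript of 453 bases, had 436, 209 and 182 RPKM at 20 days, against 4.74, 0.595 and 0.963 RPKM at 15 days. All 20-day libraries were higher than all 15-day ones, and replicate 1 was the highest at both ages. The ratio of the means was 131, and the change was 6.61 on the log2(RPKM + 1) scale (limma, SE 0.40, adjusted p 1.48e-12), a scale that understates changes of low features. Zm00001d017021, of 901 bases, had 274, 194 and 200 RPKM at 20 days, against 2.58, 0.834 and 1.26 RPKM at 15 days. The groups were far apart, with a ratio of means of 143 and a change of 6.49 (limma, SE 0.25, adjusted p 7.15e-17). The order of these 2 changed without 20-day replicate 1, 15-day replicate 2 or 15-day replicate 3. In a fit of the 6 libraries alone the adjusted p was 0.000709 for Zm00001d003282 and 0.000152 for Zm00001d017021 (limma).

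In the stages after 20 days both had higher means in the high-oil line than at 20 days. Zm00001d003282 averaged 522 RPKM at 25 days, 886 at 30 days, 821 at 35 days and 1137 at 40 days. Zm00001d017021 averaged 580, 818, 890 and 1246 RPKM at the same stages. Neither had reached its later level at 20 days.

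The largest falls belonged to Zm00001d051697 and Zm00001d033924. Zm00001d051697, of 795 bases, had 0.236, 0.0265 and 0.741 RPKM at 20 days, against 19.0, 22.5 and 34.4 RPKM at 15 days. All 3 libraries of 20 days were below 1 RPKM, and the change was −4.29 (limma, SE 0.27, adjusted p 2.69e-12). From 25 days on its mean was at most 0.0178 RPKM. Zm00001d033924, of 717 bases, had 1.02, 1.73 and 1.56 RPKM at 20 days, against 33.9, 60.3 and 40.5 RPKM at 15 days. The groups did not overlap and the change was −4.21 (limma, SE 0.48, adjusted p 2.58e-07). It averaged 1.46 RPKM at 25 days, 1.38 at 30 days, 2.27 at 35 days and 7.04 at 40 days. Whereas Zm00001d051697 stayed near 0 at the later stages, Zm00001d033924 was higher at 40 days than at 20 days. For the falls, a fit of the 6 libraries alone gave adjusted p 0.000545 for Zm00001d051697 and 0.000297 for Zm00001d033924 (limma).

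The transcript with the highest level at both ages was Zm00001d002768, of 471 bases. It had 59442, 53658 and 57588 RPKM at 20 days, against 36966, 27302 and 26177 RPKM at 15 days, and took 2.68% and 1.42% of the reads. The ages did not overlap, and the ratio of the means was 1.89. Its change of 0.93 log2 units had an adjusted p of 0.0276 (limma, SE 0.31) but stayed under the minimum of 1 unit. It passed that minimum with median-of-ratios scaling, at 1.11, without 15-day replicate 1, at 1.09, and without replicate 1 of both ages, at 1.06. Its adjusted p was 0.0550 to 0.0943 when any of the other 5 libraries was left out, 0.121 in a fit of the 6 libraries alone, 0.176 with a pseudocount of 0.1 and 0.821 without the filter (limma). The adjusted p was 5.95e-05 with limma-voom, 0.000639 with a minimum of 5 RPKM, 0.00718 without 15-day replicate 1 and 0.0336 with a replicate block (limma). Under quantile normalization, which gives the highest feature of every library the same value, its change was 0. The low-oil line had nearly the same levels of Zm00001d002768, 53617 ± 2181 RPKM at 20 days and 27976 ± 1287 RPKM at 15 days (SD, n = 3 each).

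Of the 154 microRNA precursors in the table, 28 had any read in the 6 libraries and 7 reached the limit for testing. Among these 7, 2 rose (28.6%) and 1 fell (14.3%), beside 3.24% and 5.1% of all tested features, and their median change was −0.25. The ages did not overlap in 3 of the 7, near the share of 44.8% over all tested features. MIR168a reached the limit only through the 20-day libraries and MIR156e only through the 15-day ones. The shares therefore follow partly from the limit and say nothing about precursors as a class. They are 104 to 270 bases long, so their values rest on few reads, and precursors of 1 family can share reads, whose treatment is not given in the sources used here. Read ratios below are scaled to the library totals and have exact 95% binomial intervals, which cover counting error only, since PCR can copy 1 molecule into several reads.

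The MIR156 family gives rise to microRNAs that repress SPL transcription factors and mark the juvenile phase of plants. MIR156e had 0.661, 0 and 0.167 RPKM at 20 days, against 7.91, 3.21 and 7.50 RPKM at 15 days. The groups did not overlap, and only 5 reads were counted at 20 days, against 105 reads at 15 days, a ratio of 0.046 (0.0146 to 0.111). The fall of −2.45 log2 units was called (limma, SE 0.45, adjusted p 0.000218) and passed under all 15 alternatives in which it was tested. MIR156h had 0.725, 0.732 and 1.83 RPKM at 20 days, against 3.66, 3.02 and 3.58 RPKM at 15 days. These groups did not overlap either, but the change of −1.11 was not called (limma, SE 0.50, adjusted p 0.111). In a fit of the 6 libraries alone MIR156h passed (limma, adjusted p 0.0147). The 6 members of the family with any read summed to 10, 10 and 15 reads at 20 days, against 77, 41 and 62 reads at 15 days, so that each 20-day library held fewer than each 15-day library.

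The MIR168 family gives rise to the microRNA that targets the mRNA of ARGONAUTE1, the effector of most plant microRNAs. MIR168a had 4.61, 1.82 and 2.02 RPKM at 20 days, against 0, 0 and 0.466 RPKM at 15 days. The groups did not overlap, and the reads numbered 42 at 20 days, against 2 at 15 days, a ratio of 20.3 (5.28 to 173). The rise of 1.68 was called (limma, SE 0.52, adjusted p 0.0197) but rested on few reads. It was no longer called without 20-day replicate 1 (limma, adjusted p 0.101), 15-day replicate 1 (0.0580) or 15-day replicate 2 (0.0632), nor with limma-voom on the reads (0.0624). MIR168b had 10.2, 20.2 and 14.0 RPKM at 20 days, against 12.1, 3.52 and 1.86 RPKM at 15 days. Its groups overlapped, because 15-day replicate 1 exceeded 20-day replicate 1. The reads numbered 220 at 20 days, against 84 at 15 days, a ratio of 2.53 (1.96 to 3.30), and the rise of 1.46 was called (limma, SE 0.46, adjusted p 0.0204). It was no longer called without 20-day replicate 2 (limma, adjusted p 0.0940), 15-day replicate 2 (0.0767) or 15-day replicate 3 (0.174), in a fit of the 6 libraries alone (0.0721), or with limma-voom (0.0532).

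The remaining 3 tested precursors were not called. MIR164c, whose mature microRNA targets NAC transcription factors of organ boundaries, had 3.55, 12.6 and 11.7 RPKM at 20 days, against 7.14, 6.21 and 6.55 RPKM at 15 days. Replicates 2 and 3 of 20 days lay above all 15-day libraries and replicate 1 below them (log2 0.28, limma, SE 0.35, adjusted p 0.606), and without 20-day replicate 2 the change was −0.0051. MIR408b, whose mature microRNA targets mRNAs of copper proteins, had 10.9, 15.0 and 16.6 RPKM at 20 days, against 38.7, 12.6 and 49.1 RPKM at 15 days. Its 15-day libraries lay far apart, the lowest within the range of the 20-day ones, and the change of −1.003 was not called (limma, SE 0.72, adjusted p 0.336). MIR2118c had 6.42, 7.92 and 4.75 RPKM at 20 days, against 8.16, 5.50 and 9.66 RPKM at 15 days (log2 −0.25, limma, SE 0.40, adjusted p 0.701). Its groups overlapped.

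**Figure D3:**
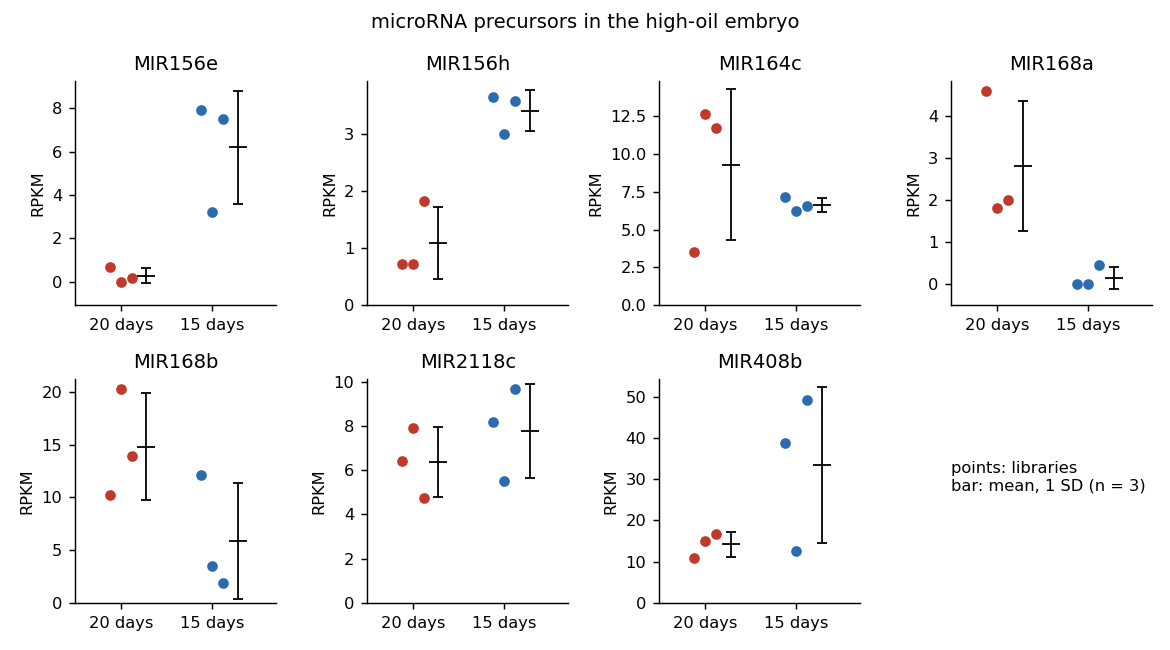
RPKM of the 7 tested microRNA precursors in each high-oil library, 20 days left and 15 days right of each panel, with replicates in the order 1, 2, 3 and the mean and 1 SD (n = 3) as a bar. MIR156e, MIR156h and MIR168a, 3 of the 7, do not overlap between ages, beside 44.8% of all tested features. MIR168b overlaps through 15-day replicate 1.

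The 21 precursors with reads that stayed under the limit had between 1 and 46 recovered reads over the 6 libraries and were not tested. Where few libraries of the series held reads, such counts are the smallest that fit the values and are uncertain. For MIR528b, with 2 reads, the length recovered with them was only 26 bases. By family, MIR159, which targets GAMYB-like transcription factors, summed to 3 reads at 20 days and 28 at 15 days. MIR167, which targets auxin response factors, summed to 17 reads at 20 days and 53 at 15 days, and in no 20-day library did it reach the count of a 15-day library. MIR160, which targets other auxin response factors, summed to 37 reads at 20 days and 13 at 15 days, but 24 of the 37 came from 20-day replicate 3. MIR393, which targets auxin receptors, had 7 reads at 20 days, all in replicate 1, and none at 15 days.

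The 3 called precursors had different levels beyond 20 days. MIR156e averaged 6.21, 0.276, 0, 0.373, 0.904 and 0.148 RPKM in the high-oil line at the 6 stages, 15 to 40 days in steps of 5. MIR168a averaged 0.155, 2.82, 12.97, 10.8, 22.6 and 28.1 RPKM at those stages. MIR168b averaged 5.84, 14.8, 30.5, 11.8, 16.1 and 7.40 RPKM. The mean of MIR156e was below 1 RPKM from 20 days on, with single libraries up to 1.12 RPKM at 30 days and 1.91 RPKM at 35 days. The mean of MIR168a was highest at 40 days and that of MIR168b at 25 days. MIR156h averaged 1.94, 1.48, 1.10 and 2.11 RPKM at the stages after 20 days.

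Levels of the called features at the other stages were then set side by side. The high-oil levels at 20 and 15 days chose these features. The other groups entered the choice only through the shared estimate of the spread, and the later stages carry no test here because they would share the 20-day libraries. In the high-oil line the median of the 730 risers was 2.90, 13.1, 17.6, 21.2, 22.7 and 22.6 RPKM at the 6 stages, youngest to oldest. The median of the 1148 fallers was 15.4, 5.47, 3.07, 2.35, 1.60 and 1.65 RPKM. That of all tested features was 9.49, 8.39, 7.25, 6.95, 6.70 and 7.13 RPKM. After 20 days the risers were higher again at 25 and 30 days, and the fallers lower at each stage up to 35 days. In the low-oil line the same risers had medians of 3.32, 9.80, 19.3, 21.3, 22.3 and 22.9 RPKM and the same fallers 13.6, 7.08, 3.25, 2.34, 1.79 and 1.48 RPKM. At 20 days the risers thus stood at 13.1 RPKM in high-oil embryos and 9.80 RPKM in low-oil embryos, and the fallers at 5.47 and 7.08 RPKM, a gap that the choice of features on high-oil values favours. From 25 days on the medians of the lines ran close.

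**Figure D4:**
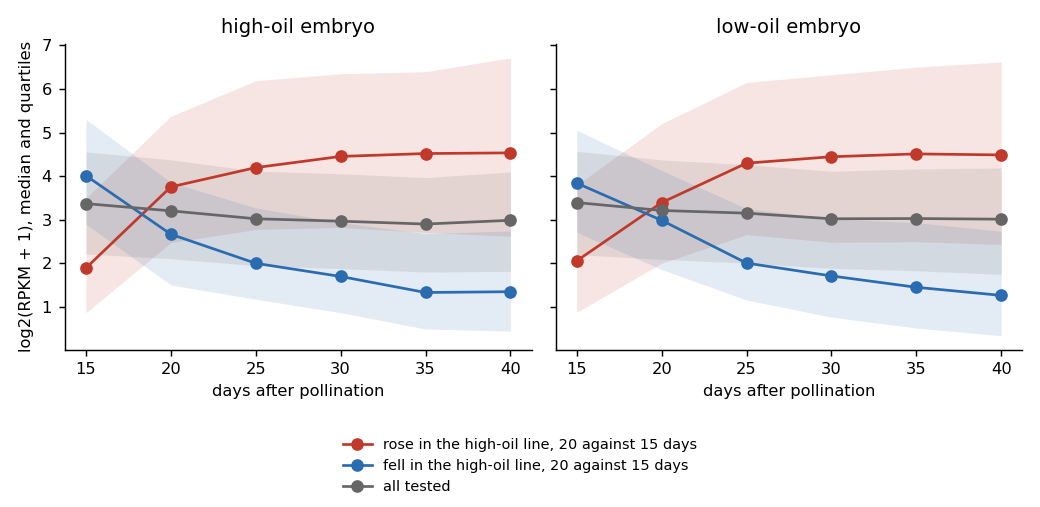
Median log2(RPKM + 1) (points and lines) and quartiles (shading) by days after pollination of the 730 features that rose (red), the 1148 that fell (blue) and all 22499 tested (grey), high-oil line left and low-oil line right. Red and blue cross between 15 and 20 days in both lines and are further apart at 20 days in the high-oil line.

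The low-oil means did not enter the high-oil changes, although the low-oil libraries, like those of all stages, contributed to the estimate of the spread behind the calls. On the same 22499 features, 1199 were called in the low-oil line at 20 against 15 days (5.33%), 575 higher (2.56%) and 624 lower (2.77%). Of the 730 high-oil risers, 372 also rose in the low-oil line, 50.96% of the high-oil and 64.7% of the low-oil list. Of the 1148 high-oil fallers, 410 also fell, 35.7% of the high-oil and 65.7% of the low-oil list. With median-of-ratios scaling, where the low-oil calls were 2.98% rises and 1.35% falls, the shared rises were 424, 50% and 63.2% of the lists, and the shared falls 205, 28.3% and 67.7%. Over the whole lists, including the shared calls, the low-oil change was above 0 for 93.0% of the high-oil risers, beside 32.0% of all tested features. It was below 0 for 94.9% of the high-oil fallers, beside 67.4% of all. The median change of the risers was 1.56 in high-oil embryos and 1.08 in low-oil embryos, and that of the fallers −1.30 and −0.87. The high-oil values are the larger partly because the features were chosen on them. Across the 22499 features the changes of the lines correlated with r = 0.70, as a description over features that are not independent. Of the named transcripts, Zm00001d003282 had changed by 5.17, Zm00001d017021 by 5.77, Zm00001d051697 by −3.39 and Zm00001d033924 by −1.81 in the low-oil line (limma, adjusted p at most 0.00943).

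Among the microRNA precursors, MIR156e fell in the low-oil line too (log2 −2.24, limma, adjusted p 0.00107), and MIR168a and MIR168b rose (1.63, adjusted p 0.0298, and 2.87, adjusted p 7.92e-05). MIR2118c fell in the low-oil line by −1.16 (limma, adjusted p 0.0447), where the high-oil change was −0.25, but the difference between the lines was 0.91 (SE 0.57, adjusted p 0.709) and was not called. For MIR168b the difference was −1.41 (limma, SE 0.64, adjusted p 0.532).

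A direct test of the difference between the lines, the high-oil change minus the low-oil change, called 60 of the 22499 features, 0.267%. In 20 of them (0.0889%) the change was higher in the high-oil line, and in 40 (0.178%) it was lower. Of the 20, 18 had risen in the high-oil line, 2 rose in the low-oil line, and 9 had a mean below 1 RPKM at both ages in the low-oil line. Of these 20 only 9 were annotated gene IDs and 10 carried a running number. Of the 40, 36 were annotated IDs, 20 had fallen in the high-oil line, 17 had risen in the low-oil line, and 12 had a mean below 1 RPKM at both ages in the low-oil line. In these 9 and 12 cases the transcript was scarcely detected in the low-oil embryo. The limit of 1 RPKM was set on the high-oil libraries, so the reverse case, scarcely detected in the high-oil embryo, could not enter the test. The lines are 2 genotypes, so oil content and other genetic differences between them cannot be told apart.

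The number of such calls turned on individual libraries. It was 98 without high-oil 15-day replicate 1. Among the high-oil libraries it was 33 without 20-day replicate 1, 37 without 20-day replicate 2 and 32 without 15-day replicate 3. Among the low-oil libraries it was 39 without 20-day replicate 1, 27 without 15-day replicate 1 and 31 without 15-day replicate 3. With limma-voom on the reads 2 features were called. Without replicate 1 of both ages in the high-oil line the count was 71.

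**Figure D5:**
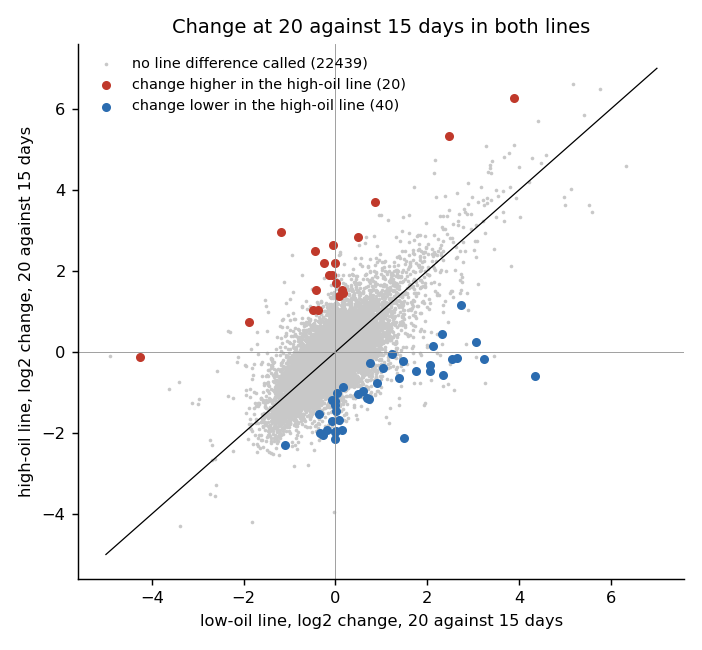
Change at 20 against 15 days of each tested feature in the high-oil line (vertical) and the low-oil line (horizontal), both in log2 units of RPKM + 1. The 20 features with a higher change in the high-oil line (red) and the 40 with a lower one (blue) lie off the line of equality, and many sit near 0 on one axis.

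Zm00001d005663 rose in high-oil embryos, where it had 201, 76.3 and 94.9 RPKM at 20 days, against 31.2, 6.48 and 12.5 RPKM at 15 days. In the low-oil line it had 1.45, 1.004 and 1.44 RPKM at 20 days, against 4.33, 0.569 and 15.999 RPKM at 15 days. The high-oil groups did not overlap and the low-oil groups did. The difference in change was 4.14 (limma, SE 0.74, adjusted p 0.00726), and it was called whichever of the 12 libraries was left out (adjusted p at most 0.0326). It was not called in a fit of the 12 libraries alone (limma, adjusted p 0.117) or with limma-voom (0.297). At the 4 later stages, 25 to 40 days, Zm00001d005663 averaged 250, 302, 386 and 542 RPKM in high-oil embryos, against 44.9, 120.4, 322 and 311 RPKM in low-oil embryos.

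Zm00001d009558 fell in high-oil embryos and rose in low-oil embryos, and was the only feature called in opposite directions. It had 3.12, 7.92 and 7.63 RPKM in high-oil embryos at 20 days, against 30.4, 29.7 and 26.9 RPKM at 15 days. In low-oil embryos it had 5.30, 2.55 and 0.0333 RPKM at 20 days, against 0, 0.0198 and 0 RPKM at 15 days. The high-oil groups were well apart, while the low-oil 20-day libraries ranged widely. The difference in change was −3.64 (limma, SE 0.69, adjusted p 0.0138). It was not called without high-oil 20-day replicate 1 (limma, adjusted p 0.0551) or low-oil 20-day replicate 1 (0.0545), with a pseudocount of 0.1 (0.187), in a fit of the 12 libraries alone (0.0655) or with limma-voom (0.464).

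Novel10240 and Zm00001d024575 were called in the low-oil line and not in the high-oil line. Novel10240, a running-number feature of 267 bases, had 41.7, 56.1 and 42.5 RPKM in high-oil embryos at 20 days, against 44.7, 56.9 and 50.2 RPKM at 15 days. In low-oil embryos it had 0, 0.232 and 0 RPKM at 20 days, against 21.9, 14.1 and 23.9 RPKM at 15 days. Zm00001d024575 had 8.19, 13.9 and 9.19 RPKM in high-oil embryos at 20 days, against 12.7, 12.6 and 24.8 RPKM at 15 days. In low-oil embryos Zm00001d024575 had 16.6, 23.97 and 22.8 RPKM at 20 days, against 0.121, 0.0551 and 0.0549 RPKM at 15 days. In both, the high-oil groups overlapped and the low-oil groups did not, with low-oil changes of −4.26 (limma, adjusted p 5.61e-05) and 4.35 (limma, adjusted p 0.000219). The differences of 4.14 (limma, SE 0.93, adjusted p 0.0434) and −4.94 (limma, SE 1.06, adjusted p 0.0316) lay close to the threshold. In a fit of the 12 libraries alone the adjusted p was 6.80e-05 for Novel10240 and 7.48e-05 for Zm00001d024575 (limma). Both also stayed called with a replicate block. Neither was called with median-of-ratios scaling (limma, adjusted p 0.0806 and 0.0832) or with limma-voom (0.437 and 0.315). Novel10240 was not called without the filter (limma, adjusted p 0.0536) or at 5 RPKM (0.0663). Zm00001d024575 was not called with a pseudocount of 0.1 (limma, adjusted p 0.179) or quantile normalization (0.0583). The call of Novel10240 was lost whichever of the 12 libraries was left out (limma, adjusted p 0.0599 to 0.121), and that of Zm00001d024575 in 11 of the 12 cases (up to 0.0994). In low-oil embryos Novel10240 averaged 0.170 RPKM at 25 days, 0.130 RPKM at 30 days and 33.1 ± 12.6 RPKM at 35 days (SD, n = 3). At 40 days its low-oil libraries lay far apart, at 0.174, 17.2 and 55.2 RPKM. Zm00001d024575 ranged from 2.97 to 9.47 RPKM in high-oil and 8.49 to 22.1 RPKM in low-oil embryos at 25 days. At 30 days its replicates ran from near 0 upward, 0.0485 to 6.95 RPKM in high-oil and 0.0554 to 9.21 RPKM in low-oil embryos.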

How the data were processed

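The authors deposited 1 table of RPKM values with 1 column per library, 0 of whose columns were left unused here. Per the submitters' processing notes, FastQC, TopHat2, Cufflinks and the genome build B73 RefGen_v4 were involved, with no version or role stated. How reads were counted, whether by strand, and which annotation release served is not given in the sources used here. Deposited RPKM values resolved to whole reads for 100% of the 51853 features with any value, within 0.0001 reads, in all 36 libraries. A feature with values in few libraries resolves in nearly every case, so the 100% is no check on its counts. Its reads are the smallest whole numbers that also gave a whole length, and may be too low. Recovered reads matched the implied library totals within 1218 reads, but those totals were set from the summed reads. The recovered reads were used for read counts, shares and a limma-voom alternative, and the main test used the RPKM values.

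The main test was limma 3.58.1 in R 4.3.3 on log2(RPKM + 1), a pseudocount of 1, with 1 mean per line and stage over all 36 libraries in 12 groups and moderated variances that follow a mean-variance trend. P-values were adjusted over the 22499 features that passed the limit of 1 RPKM in 3 of the 6 high-oil libraries. A call needed an adjusted p under 0.05 and a change of 1 log2 unit or more. Tested on simulated reads for this comparison (22353 features, 100 changes of each size), it recovered 96% of 4-fold and 23% of 2-fold changes with 20 false calls. A 2-fold change lies at the minimum of 1 log2 unit and the pseudocount lowers it, so its low recovery was set in advance. The other features were simulated without a difference between ages, so the shift of the median change in the real data was not covered. Other settings were quantile normalization, scaling by median of ratios, no filter, a filter at 5 RPKM, a pseudocount of 0.1, fits of the compared groups alone, a replicate block, adjusted p alone and each library left out. Leaving out replicate 1 of both ages was added after seeing the data.

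The reference gene table, with 49888 genes of another assembly, held 0 of the 44146 annotated IDs. The 21 lists defined by gene names and the cell type markers therefore could not be resolved, and no sequence is shown. Named are the 2 largest rises and falls without overlap between ages, the 2 largest line differences each way, the transcript highest at both ages and the tested microRNA precursors. Members, lists and tests were chosen with earlier results of these data known.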

Additional observations from a re-analysis of the deposited data

Results flagged for a closer look

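By a direct test (limma), the change at 20 against 15 days was called different between high-oil and low-oil embryos in 60 of 22499 features (0.267%). It was higher in the high-oil line in 20 features (0.0889%) and lower in 40 (0.178%). With limma-voom only 2 features were called. The differences were 4.14 log2 units for Novel10240 and 4.14 for Zm00001d005663, and −4.94 for Zm00001d024575 and −3.64 for Zm00001d009558. These 4 are the largest in each direction that the naming rule selects. Their values in each library stand with the line comparison, and what sets the lines apart in them was not tested. With each of the 12 libraries left out in turn, the call of Novel10240 was lost in all 12 cases. That of Zm00001d024575 was lost in 11, that of Zm00001d009558 in 2 and that of Zm00001d005663 in none.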

How the results depend on the processing

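The high-oil counts of 1878 calls, 730 rises and 1148 falls stayed within 1.5 times under most settings. Exceptions were 724 falls with median-of-ratios scaling, 483 rises with a minimum of 5 RPKM, and 5242 calls (1409 rises, 3833 falls) with the adjusted p alone. Leaving out each library gave 1537 to 2053 calls, 584 to 809 rises and 953 to 1244 falls. The 1199 low-oil calls became 303 falls with median-of-ratios scaling, 369 falls with quantile normalization, 380 rises at 5 RPKM, and 3990 calls (1044 rises, 2946 falls) with the adjusted p alone, and 992 to 1389 calls, 478 to 558 rises and 480 to 847 falls without each library. The 60 line differences became 36 (21 lower) with median-of-ratios scaling, 18 (12 higher, 6 lower) with a pseudocount of 0.1, 23 (10 higher, 13 lower) at 5 RPKM, and 2 (1 higher, 1 lower) with limma-voom. Without each library they ranged from 27 to 98 (10 to 52 higher, 16 to 46 lower), and without replicate 1 of both high-oil ages 41 were higher. The cause was not tested. The difference in the share of the 10 highest features ran from 7.90 to 10.03 points without each library. The change of MIR164c turned to −0.0051 without 20-day replicate 2, and was 0.83 without replicate 1 of both ages. Deviations of same-numbered replicates correlated at 0.279, 0.219 and 0.0159 in the high-oil and −0.193, −0.247 and −0.0638 in the low-oil line. Of the high-oil 20-day replicates, 1 and 2 correlated best with the 15-day replicate of their number, and 3 with replicate 2 (0.231). No low-oil 20-day replicate correlated best with its own number. With the replicate block, 1875 high-oil, 1200 low-oil and 56 line-difference calls were made. With the block in fits of the compared groups alone there were 2098 high-oil calls, 220 low-oil calls (171 rises, 49 falls) and 24 line differences (10 higher, 14 lower). Depth limits the microRNA precursors, as MIR168a rests on 42 reads at 20 days and 2 at 15 days.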
